A study of Mus musculus with 8 samples.

Results

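Hematopoietic stem cells of mice in which Huwe1 is deleted constitutively in blood cells were compared with wild type stem cells in 5 of the 8 RNA-seq libraries of the series: 2 labelled Huwe1 KO (Vav-Cre) and 3 labelled Huwe1 WT, chosen by their labels and by no measured value. All were mouse bone marrow cells with the Lin-Sca+Kit+CD48-CD150+ phenotype, the surface profile of long-term stem cells, and taken into Trizol with no treatment and no culture. In the Vav-Cre mice the conditional Huwe1 allele is deleted by a recombinase that is active in blood cells and not in most other tissues. The remaining 3 libraries, labelled Huwe1 KO (Mx1-Cre), come from mice in which deletion is induced, and they served to estimate the spread and to test where the 2 knockouts differ. The labels name no Cre or floxed allele for the wild type mice, no strain, age or sex, and no number of mice per library. They do not say whether libraries of a group came from separate mice, so p-values measure the spread between these libraries, which may be partly technical.

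HUWE1 is a large HECT-type E3 ubiquitin ligase: it hands ubiquitin to other proteins and so marks many of them for the proteasome. N-MYC, MCL1 and p53 are among the substrates reported for it, and through them the enzyme has been tied to growth, survival and the response to damaged DNA. Stem cells of the marrow are mostly at rest and feed the red cell, platelet, myeloid and lymphoid lineages. RNA counts show neither protein levels nor ubiquitination.

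The libraries held 28689765 (Vav-Cre 1) to 31521099 (Vav-Cre 2) counts, with wild type between 29579400 and 31338586, and 14739 and 15170 genes had a count in Vav-Cre 1 and 2 against 15331 to 15554 in wild type. Of 23358 genes in the table, 14086 had enough counts to be tested. Levels below are CPM, read counts relative to a library size that is scaled by TMM, and are listed in the order wild type 1, 2 and 3, then Vav-Cre 1 and 2. Summed levels of lists, and the values of Alas2 and Epor, are relative to library totals instead. Fold changes are log2 values (Vav-Cre minus wild type) ± SE from edgeR's quasi-likelihood fit, and a gene was called at a Benjamini-Hochberg adjusted p below 0.05 over all tested genes. Huwe1 itself was at 434, 398 and 433 CPM in wild type and at 445 and 490 CPM in Vav-Cre libraries, a difference of 0.15 ± 0.13 (adjusted p = 0.682). A count over the whole gene need not show the loss of a few exons, and which exons were removed is not given in the labels, so it does not check the knockout label. The stem cell gate did show: Kit was at 1253 to 1854 CPM in wild type and at 1774 and 1631 in Vav-Cre libraries, Slamf1 (CD150) was at least 62.8 and Cd48 at most 16.1 in all 5, and Cd3e, Cd8a and Ms4a1 had no count in either Vav-Cre library, which allows up to 3 counts or 0.0493 CPM over both. Ly6a (Sca-1) was at 75.5 to 96.0 CPM in wild type, and at 50.6 and 144 in Vav-Cre 1 and 2.

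The 2 Vav-Cre libraries stood further from each other than any pair of wild type libraries. Of 9604 genes with at least 10 CPM in the higher of the pair, 99 (1.03%) differed at least 4-fold between Vav-Cre 1 and 2, whereas 12 to 20 genes (0.126 to 0.209%) did so between wild type libraries. Vav-Cre 2 was the higher one for 78 of the 99 (0.812% of the genes) and Vav-Cre 1 for 21 (0.219%). The group's biological coefficient of variation was 36.1%, compared with 30.5% in Mx1-Cre libraries and 21.2% in wild type. For this reason levels are given for each library.

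Of the 14086 genes, 72 (0.511%) passed the test, 27 higher (0.192%) and 45 lower (0.319%) in Vav-Cre stem cells, and none of the 72 overlapped between the groups. Of all tested genes, 15.6% lay above and 17.1% below all wild type libraries in both Vav-Cre libraries. At least 2-fold changes made up 22 of the rises and 44 of the falls. At an unadjusted p below 0.05 there were 812 higher (5.76%) and 1076 lower (7.64%) genes, 13.4% of those tested, against which such counts in the lists below are to be read. DESeq2 called 4.15% of the 14082 of these tested genes that it could adjust, all 72 among them. Of the 72, limma-trend on the deposited CPM values called 69 and limma-voom 48. How many pass depends strongly on single libraries: 25 passed without Vav-Cre 2 and 196 without Vav-Cre 1, while leaving out wild type 2 left 5 and wild type 3 left 12. Of the 72, 23, 5 and 11 kept their call without wild type 1, 2 and 3, 43 without Vav-Cre 1 and 11 without Vav-Cre 2, and 28, 72 and 72 without Mx1-Cre 1, 2 and 3, which enter only through the spread. In all 8 of these fits 5 genes passed: Synpo2, which rose, and Kcnj5, Add2, Slc38a5 and Gprasp2, which fell. Each of the other 67 missed the threshold in at least 1 of them, which holds for every called gene named below except these 5.

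**Figure D1:**
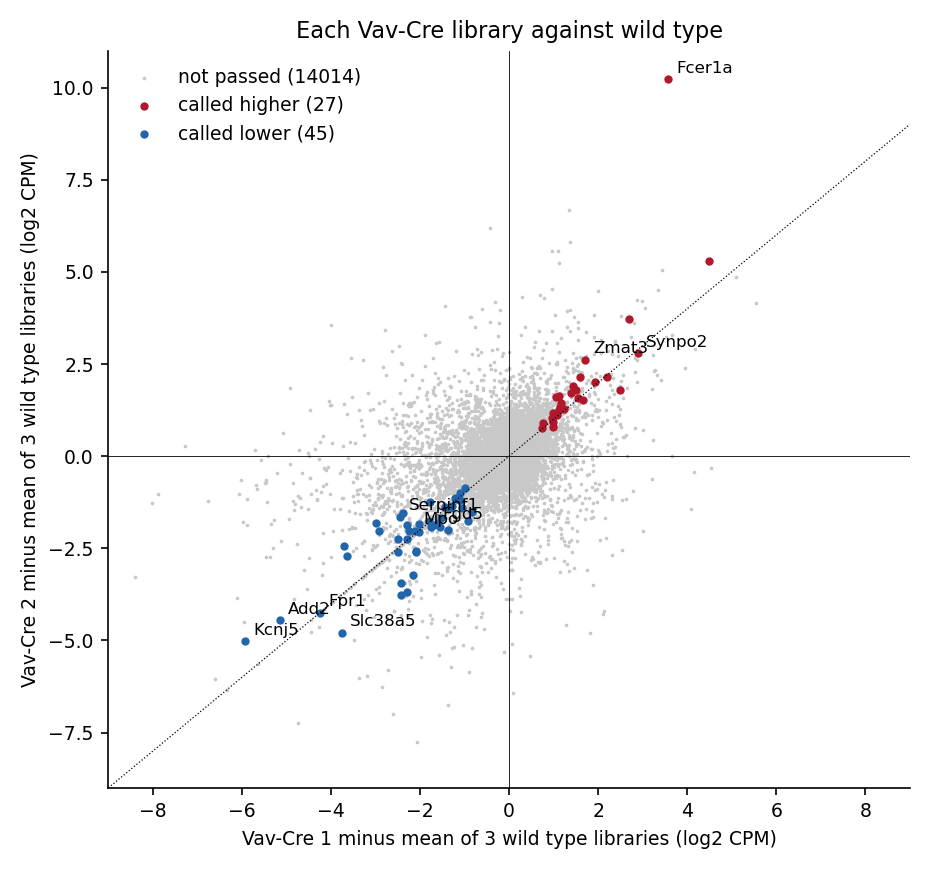
Each point is 1 of the 14086 tested genes. The horizontal axis gives Vav-Cre 1 and the vertical axis Vav-Cre 2, each minus the mean of the 3 wild type libraries in log2 CPM, with the 27 genes called higher in red, the 45 called lower in blue and a dotted line where both libraries are equal. Called genes lie near that line, except Fcer1a at the top, while many genes that did not pass lie far from it.

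Among genes with reads in both groups the largest falls were of Kcnj5, Add2 and Slc38a5. Kcnj5, a subunit of an inwardly rectifying potassium channel, was at 6.37, 8.11 and 4.32 CPM in wild type and at 0.035 and 0.124 in Vav-Cre libraries, which are 1 and 4 reads. Add2, the beta subunit of adducin in the red cell membrane skeleton, was at 3.47, 6.73 and 4.70 CPM and then at 0.0701 and 0.155. Slc38a5, a glutamine transporter, was at 4.52, 7.35 and 6.66 CPM and then at 0.385 and 0.155. All 3 genes were thus close to silent in both Vav-Cre libraries, and their fitted changes were -6.20 ± 0.62 (adjusted p = 0.00581), -5.39 ± 0.56 (adjusted p = 0.00615) and -4.51 ± 0.49 (adjusted p = 0.00722). Gprasp2, a sorting protein for G protein-coupled receptors whose exons are partly shared with Bhlhb9 on the same strand, was more abundant, at 37.9, 39.1 and 46.7 CPM in wild type and 8.34 and 8.52 in Vav-Cre libraries, and it fell by 2.29 ± 0.22 (adjusted p = 0.00581).

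Rhd, which carries a Rh blood group antigen, was at 9.38, 15.8 and 17.9 CPM against 1.05 and 2.05, and fell by 3.21 ± 0.46 on the log2 scale (adjusted p = 0.0269). Anpep (the aminopeptidase CD13, 12.5 to 15.1 CPM against 2.56 and 0.961), Itga9 (an integrin alpha chain, 8.77 to 12.6 against 1.89 and 0.899) and Rps6ka6 (a ribosomal S6 kinase, 13.2 to 18.2 against 3.54 and 1.64) fell in both libraries, each further in Vav-Cre 2. The sodium pump subunit Atp1b2 went the other way round, with 5.58 to 13.1 CPM in wild type, 1.19 in Vav-Cre 1 and 2.29 in Vav-Cre 2.

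Klk8, a serine protease, was at 34.8, 44.7 and 49.3 CPM in wild type and at 5.25 and 12 in Vav-Cre libraries, a fall of 2.32 ± 0.35 (adjusted p = 0.0327). Serpine2, an inhibitor of thrombin and other serine proteases, was at 17.3, 30.5 and 14.1 CPM against 3.43 and 3.16 (-2.64 ± 0.38, adjusted p = 0.0269). Serpinf1, the secreted factor PEDF, was at 58.1, 85.7 and 78.2 CPM against 13.3 and 23.4 (-2.01 ± 0.30, adjusted p = 0.0327), and Timp3, an inhibitor of metalloproteinases, at 84.9, 66.6 and 75.7 against 27.9 and 28.9 (-1.41 ± 0.24, adjusted p = 0.0376). In each of these genes both Vav-Cre libraries were below every wild type library. Rnase4, Coro2b and Hist1h2ac were further falls of this size, at -2.44 ± 0.41, -2.42 ± 0.37 and -2.37 ± 0.37. Rnase4 shares exon bases with Ang on the same strand, and Hist1h2ac is 1 of many near-identical histone H2A genes, so their reads may not be their own.

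Among the remaining falls were Myo7a, an unconventional myosin (21.0 to 23.4 CPM in wild type, 4.69 and 5.39 in Vav-Cre libraries, -2.15 ± 0.24), and Hmgn2, a nucleosome-binding protein and the most abundant of the called falls. Hmgn2 was at 446, 508 and 492 CPM in wild type and at 253 and 143 in Vav-Cre libraries (-1.28 ± 0.22, adjusted p = 0.0376). Fpr1, the formyl peptide receptor of phagocytes, had 40, 27 and 46 reads in wild type and none in either Vav-Cre library. Set against a floor of 3 counts over both libraries, it was at least 24.6-fold lower.

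When the tested genes were split by mean level into 3 equal parts, 6 of the 27 rises were in the lowest, 14 in the middle and 7 in the highest part, and for the falls these numbers were 14, 25 and 6. Synpo2, an actin-binding protein, was at 6.21, 4.73 and 5.48 CPM in wild type and at 40.8 and 37.9 in Vav-Cre libraries, and rose by 2.85 ± 0.24 (adjusted p = 0.00293), the smallest adjusted p of the comparison. Zmat3, an RNA-binding protein encoded by a p53 target gene, was at 10.9, 8.63 and 12.4 CPM against 34.6 and 64.9 (2.23 ± 0.28, adjusted p = 0.0154). Cpt1c, the carnitine palmitoyltransferase isoform known from brain, was at 7.36, 6.37 and 4.54 CPM against 27.7 and 26.6 (2.16 ± 0.24, adjusted p = 0.00723). Wild type and Vav-Cre libraries were well apart in these 3 genes. Zmat3 was nearly 1 log2 unit higher in Vav-Cre 2 than in Vav-Cre 1 (0.90), while Synpo2 and Cpt1c were level between them.

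Fut8, the enzyme of core fucosylation, rose from 233, 283 and 336 CPM to 737 and 921 (1.55 ± 0.20, adjusted p = 0.0154) and was the most abundant of the 15 largest rises. Tnfaip8l2, a restraint on immune receptor signalling, was at 13.6 to 15.2 CPM in wild type and at 39.1 and 54.3 in Vav-Cre libraries (1.69 ± 0.21). Clec11a, a growth factor made by marrow cells, was at 2.74, 3.32 and 2.21 CPM against 8.37 and 12.2, Nrg4, a ligand of the EGF family, at 3.93, 3.51 and 4.54 against 12.6 and 11.7, and Fetub, a liver protease inhibitor, at 2.05, 1.87 and 1.93 against 7.64 and 8. Their changes were 1.90 ± 0.33, 1.60 ± 0.27 and 2.00 ± 0.33, each with an adjusted p of 0.0376.

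Snx31 (a sorting nexin, 2.12 ± 0.38), Kcnip3 (a calcium-binding regulator of channels and transcription, 1.56 ± 0.26), Apobr (a lipoprotein receptor, 1.40 ± 0.24) and the non-coding 5830416P10Rik (1.66 ± 0.29) also rose. Rec8, a meiotic cohesin subunit, was at 19.7, 28.9 and 26.1 CPM against 51.0 and 74.4 (1.33 ± 0.23), and Meiob, which binds single-stranded DNA in meiosis, had 10, 1 and 5 reads in wild type against 130 and 257. 2010015L04Rik, named Cfap74 in RefSeq and a component of cilia and flagella, was at 1.06, 2.49 and 1.49 CPM against 10.6 and 21.9 (3.27 ± 0.50, adjusted p = 0.0327). Its exons overlap a gene on the opposite strand, and the libraries carry no strand information. Socs2, which dampens cytokine receptors, was at 35.8 to 42.0 CPM against 76.4 and 80.1 (0.99 ± 0.18), and Ifnar1, a chain of the type I interferon receptor, at 91.2 to 97.7 against 160 and 163 (0.76 ± 0.14, adjusted p = 0.0432).

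Fcer1a, the alpha chain of the high-affinity IgE receptor of mast cells and basophils, had the largest fitted rise, but the 2 Vav-Cre libraries differed about as much from each other as from wild type. It had 7, 6 and 0 reads in wild type, 57 in Vav-Cre 1 and 6729 in Vav-Cre 2, or 2.00 and 209 CPM. The call was made at 9.51 ± 1.62 (adjusted p = 0.0376) and held in 3 of the 8 fits without a library, with an adjusted p of 0.134 without Vav-Cre 2. In the mast cell and basophil list 1 of 18 tested members passed, this gene. The defining protease genes Mcpt4, Cma1, Prss34 and Tpsb2 had no read in either Vav-Cre library. In wild type Mcpt4 and Tpsb2 had none either, Cma1 had 0, 0 and 13 reads and Prss34 20, 1 and 0. Cpa3 was at 14.3 and 25.2 CPM (wild type 8.88 to 10.1), and Gzmb had no read in Vav-Cre 1 and 6.45 CPM in Vav-Cre 2. Hdc had 153, 223 and 181 reads in wild type against 37 and 18. Ms4a2 had 110, 9 and 10 reads against 6 and 29, and Mcpt8 46, 15 and 7 against 0 and 2. The summed level of the 25 listed genes was 1957 to 2107 CPM in wild type, 1963 in Vav-Cre 1 and 2931 in Vav-Cre 2.

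**Figure D2:**
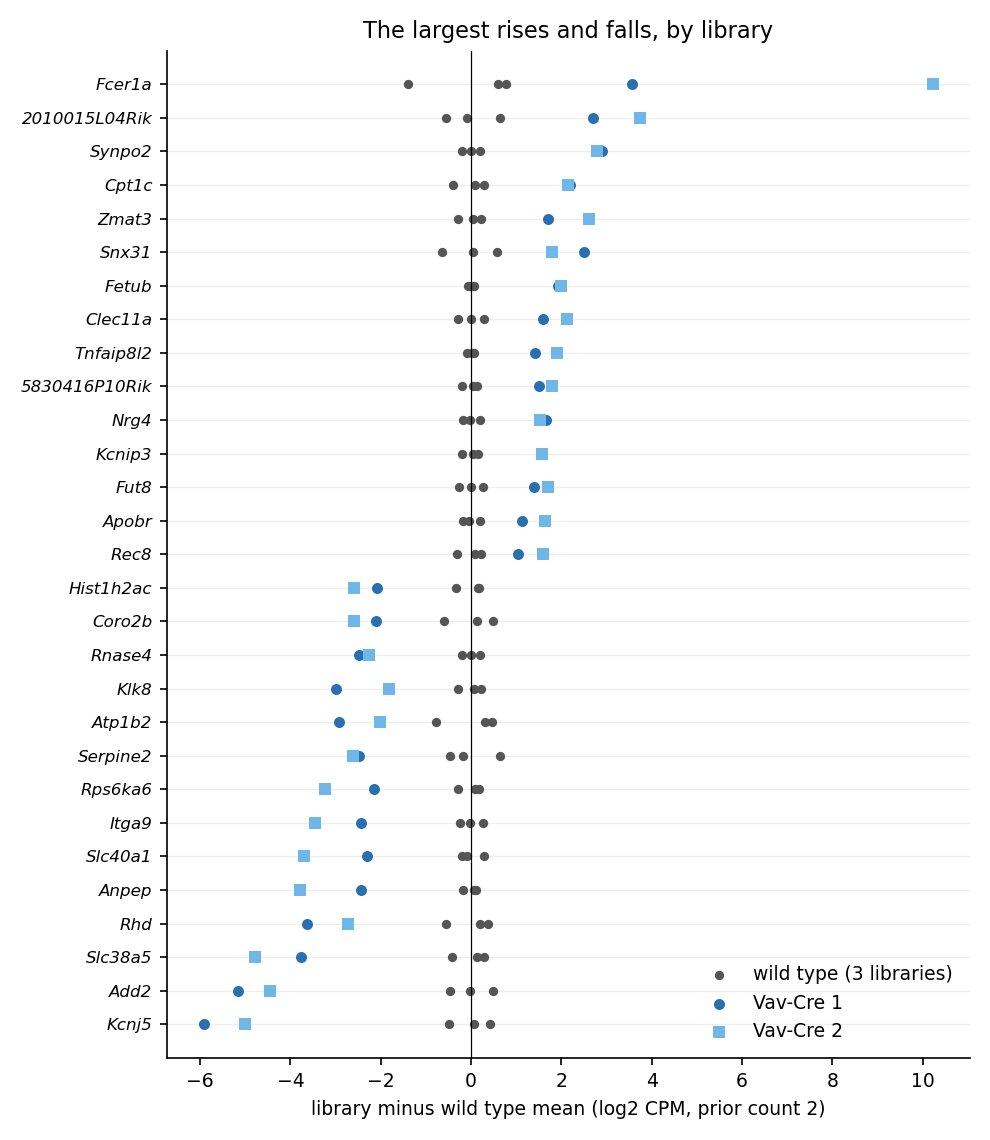
Values of the 15 largest rises and of 14 of the largest falls in each library, as log2 CPM minus the wild type mean on the horizontal axis, with 1 gene a row. Grey points are the 3 wild type libraries, the dark circle is Vav-Cre 1 and the light square Vav-Cre 2. Both Vav-Cre libraries lie on the same side of all wild type libraries in every row, which was a condition for choosing these genes. Fcer1a shows by far the widest gap between the 2 Vav-Cre libraries.

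Of 41 stem cell identity genes 1 passed, Fgd5. Fgd5, a guanine nucleotide exchange factor whose locus is used to mark long-term stem cells, was at 50, 59.1 and 59.4 CPM in wild type and at 17.2 and 15.2 in Vav-Cre libraries, and fell by 1.79 ± 0.31 (adjusted p = 0.0376). The gene passed in 2 of the 8 fits without a library (highest adjusted p 0.172). The median change over the list was 0.102 (all tested genes: -0.009), and it differed between the libraries: -0.224 in Vav-Cre 1 and 0.254 in Vav-Cre 2, with 11 members below all wild type libraries in Vav-Cre 1 and above them in Vav-Cre 2. Over all tested genes 12.1% lay on opposite sides of the wild type range, in either order. Slamf1, which encodes the CD150 used in the sort, was at 68.4, 62.8 and 67.3 CPM against 105 and 108 (0.68 ± 0.14, adjusted p = 0.0632). Gfi1b, a repressor needed for red cell and platelet formation, was at 281 to 311 CPM against 151 and 154 (-0.96 ± 0.19, adjusted p = 0.0631). Neither passed, although both libraries lay outside the wild type range in each. The transcription factors Hlf (704 to 826 CPM against 872 and 949) and Mecom (212 to 246 against 269 and 225) had adjusted p-values of 0.570 and 0.869.

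Genes of niche homing and adhesion had no called member among 32. At an unadjusted p below 0.05 there were 4 higher and 9 lower, where 5.76% and 7.64% of all tested genes were, and DESeq2 called 5 lower. Vcam1, an adhesion molecule, was at 14.6, 41.6 and 25.1 CPM in wild type and at 6.83 and 3.87 in Vav-Cre libraries (-2.34 ± 0.51, adjusted p = 0.0836). It is also a member of the macrophage and dendritic cell list below. Jam3, a junctional adhesion molecule, was at 20.4, 37.3 and 34.6 CPM against 11.6 and 10.4 (-1.48 ± 0.33, adjusted p = 0.0847). In the HOX A and B clusters 0 of 14 passed with edgeR and 0 with DESeq2, and 4 had an unadjusted p below 0.05. Their median was 0.031 in Vav-Cre 1 and 0.674 in Vav-Cre 2. No gene of the TGF-beta and SMAD list (29 tested) passed with edgeR, 5 had an unadjusted p below 0.05 and 2 were called by DESeq2, while in the DNA methylation and Polycomb list (32 tested) the numbers were 0, 2 and 0.

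MYC family genes are of interest because N-MYC protein is a reported HUWE1 substrate. Mycn was at 91.1, 117 and 114 CPM in wild type and at 198 and 199 in Vav-Cre libraries, higher in both than in any wild type library, with a change of 0.88 ± 0.20 that did not pass (adjusted p = 0.0914). Mnt, a repressor that pairs with MAX, was at 30.9 to 35.8 CPM against 50.5 and 72.4 (0.87 ± 0.20, adjusted p = 0.0866). Myc was at 746, 634 and 546 CPM against 550 and 687 and Max at 13.4, 16.5 and 24.2 against 17.2 and 21.7, so for both the groups overlapped. Over the 12 tested genes of the MYC, MAX and MXD network edgeR called 0, 3 had an unadjusted p below 0.05 and DESeq2 called 2. Of the 17 tested genes reported to encode HUWE1 substrates, edgeR called 0, 1 had an unadjusted p below 0.05 and DESeq2 called 1, in both cases Mycn. Trp53 was at 554 to 637 CPM against 580 and 470, and Mcl1 at 148 to 204 against 180 and 237.

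Ribosome biogenesis genes, which build pre-ribosomes in the nucleolus and include many known MYC targets, lay lower in both Vav-Cre libraries, mostly by small amounts. Of 53 tested members 1 passed, Rrp12, an export factor of ribosomal subunits, at 53.9, 47.3 and 37.5 CPM in wild type and 20.4 and 20.6 in Vav-Cre libraries (-1.17 ± 0.20, adjusted p = 0.0376), and passed in 2 of the 8 fits without a library (highest adjusted p 0.178). The fitted change was negative in 52 of the 53 (median -0.275), and 33 members (62.3%) were below all wild type libraries in both Vav-Cre libraries, where 17.1% of all tested genes were. Vav-Cre 1 and 2 gave medians of -0.264 and -0.308, beside -0.064 to 0.051 in single wild type and -0.129 to 0.014 in Mx1-Cre libraries. Grwd1, a ribosome assembly factor, missed the threshold (106, 103 and 95.8 CPM against 61.0 and 61.2, -0.73 ± 0.14, adjusted p = 0.0508), and Nop2, an rRNA methyltransferase, was at 197, 165 and 166 against 123 and 134 (-0.45 ± 0.15, adjusted p = 0.214). Pwp2, a further factor of small subunit assembly that the list does not hold, was chosen after its values were seen: it fell from 89.0, 77.6 and 75.7 CPM to 40.6 and 44.2 (-0.93 ± 0.15, adjusted p = 0.0355). Genes for the ribosomal proteins themselves did not share the shift: none of 51 cytosolic ones passed with edgeR, with 1 at an unadjusted p below 0.05 and 1 called by DESeq2, and their median was 0.000.

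**Figure D3:**
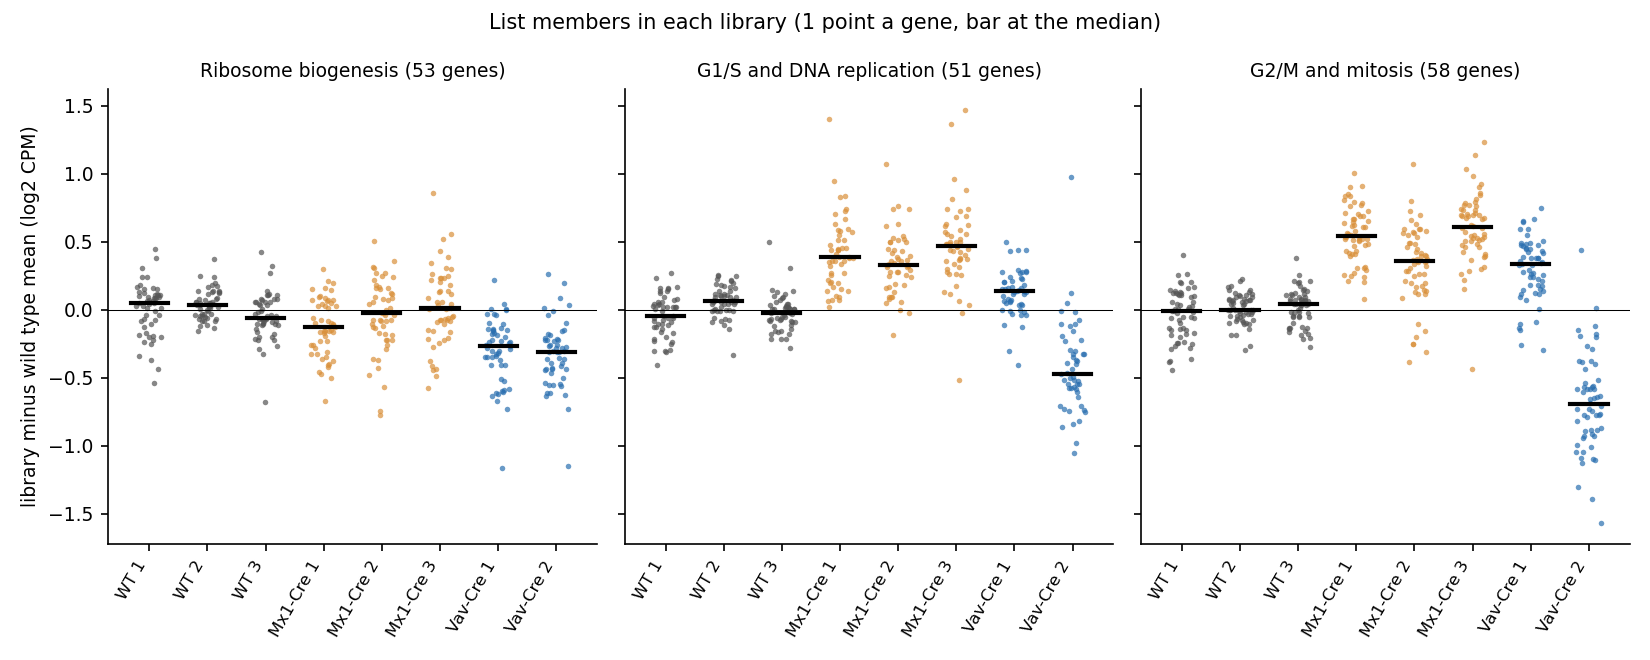
Members of the ribosome biogenesis, G1/S and G2/M lists in each of the 8 libraries, as log2 CPM minus the wild type mean on the vertical axis. Each point is a gene and each bar the median of the library. The ribosome biogenesis medians of Vav-Cre 1 and 2 are alike at -0.264 and -0.308, whereas their G2/M medians are 0.335 and -0.697.

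The hexamer CACGTG, an E-box that MYC-MAX dimers can bind and that reads the same on both strands, was looked for in promoter windows of 300 bases (250 before and 50 after the start) from RefSeq, build GRCm38.p6. It stood in the windows of 10 of the 47 ribosome biogenesis members that had one (21.3%), of 13 of 33 MYC targets in biosynthesis (39.4%) and of 1190 of all 10327 tested genes with a window (11.5%). Among called genes it stood in 6 of 34 falls and 0 of 18 rises. The sequences below are the 120 bases before the start of 4 genes, shown because they carry the motif there, with the motif in capitals; they are the genes with the smallest p in the 2 lists that do. A match is a description of the letters only.
Nop2 (chr6:125131763-125131882, plus strand): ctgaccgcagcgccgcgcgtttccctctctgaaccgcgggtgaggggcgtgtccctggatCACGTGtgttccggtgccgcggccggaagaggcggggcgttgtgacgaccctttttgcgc
Utp18 (chr11:93885767-93885886, minus strand): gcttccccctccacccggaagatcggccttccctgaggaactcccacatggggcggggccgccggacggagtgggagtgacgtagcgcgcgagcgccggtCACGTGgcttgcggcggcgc
Hspd1 (chr1:55088244-55088363, minus strand): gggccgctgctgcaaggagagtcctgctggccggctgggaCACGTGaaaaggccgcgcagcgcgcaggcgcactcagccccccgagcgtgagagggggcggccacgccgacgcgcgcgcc
Ran (chr5:129020036-129020155, plus strand): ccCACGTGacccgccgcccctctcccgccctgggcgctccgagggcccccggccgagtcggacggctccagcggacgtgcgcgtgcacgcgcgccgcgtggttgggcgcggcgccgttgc

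These 4 genes did not behave alike. Nop2 and Hspd1, a mitochondrial chaperonin (200, 210 and 185 CPM against 151 and 118, -0.56 ± 0.16, adjusted p = 0.157), were below every wild type library in both Vav-Cre libraries, and so was Ran, a GTPase of nuclear transport (265 to 312 against 250 and 189). Utp18, a subunit of the small subunit processome, was not: it had 32.6, 49.7 and 53.1 CPM in wild type and 33.4 and 50.6 in Vav-Cre libraries. Over the 36 MYC targets in biosynthesis edgeR called 0, 6 had an unadjusted p below 0.05 (1 higher, 5 lower) and DESeq2 called 1. Their median was -0.088 in Vav-Cre 1 and -0.377 in Vav-Cre 2. Mthfd1, an enzyme of folate-dependent one-carbon metabolism outside these lists, fell from 239, 196 and 176 CPM to 112 and 70.6 (-1.15 ± 0.21, adjusted p = 0.0481).

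Hsph1, a nucleotide exchange factor for HSP70, was at 94.2, 168 and 193 CPM in wild type and at 47.6 and 41.6 in Vav-Cre libraries (-1.77 ± 0.30, adjusted p = 0.0376) and was the 1 cytosolic heat shock gene of 19 to pass. It passed in 3 of the 8 fits without a library (highest adjusted p 0.169). The fitted median of the 19 was -0.368 (-0.167 in Vav-Cre 1 and -0.468 in Vav-Cre 2), and 9 (47.4%) were below all wild type libraries in both Vav-Cre libraries, against 17.1% of all tested genes. Bag2, a co-chaperone outside the list, fell from 55.7 to 60.5 CPM in wild type to 25.2 and 26.9 (-1.17 ± 0.19). In the unfolded protein and integrated stress response list edgeR called 0 of 37, 10 had an unadjusted p below 0.05 (1 higher, 9 lower) and DESeq2 called 3. Its members Asns, which makes asparagine, and Hspa5, the HSP70 of the endoplasmic reticulum, were at 159 to 206 CPM against 126 and 94.4 and at 879 to 1120 CPM against 709 and 492 (adjusted p = 0.0986 and 0.152).

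Of 40 tested targets of p53 1 passed, Zmat3, which passed in 5 of the 8 fits without a library (highest adjusted p 0.0964), and 12 members (30.0%) were above all wild type libraries in both Vav-Cre libraries, where 15.6% of all tested genes were. Trp53inp1, a p53-induced regulator of cell death and autophagy, was at 61.2, 52.5 and 55.7 CPM against 85.9 and 116 (0.84 ± 0.16, adjusted p = 0.0552), and Eda2r, a death receptor, at 3.24 to 4.39 against 7.71 and 12.4 (1.38 ± 0.32, adjusted p = 0.0948). Cdkn1a, which encodes the cell cycle inhibitor p21, was at 3.17, 1.84 and 3.39 CPM against 6.55 and 7.50 (1.33 ± 0.48, adjusted p = 0.256). Other members pointed down, such as the death receptor Fas at 5.79 to 10.4 CPM against 4.45 and 2.36. Cdkn2c, the inhibitor p18 of CDK4 and CDK6, was the CDK inhibitor gene with the smallest p, at 5.12, 5.38 and 5.51 CPM against 11.2 and 19.8 (1.54 ± 0.31, adjusted p = 0.0631), and Cdkn1c (p57) was at 10.4, 17.8 and 19.8 against 10.3 and 11.5 (-0.56 ± 0.30, adjusted p = 0.460). Of the 5 tested CDK inhibitor genes edgeR called 0, 2 had an unadjusted p below 0.05 and DESeq2 called 1.

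Cell cycle genes separated the Vav-Cre libraries from each other. Of 58 genes of G2/M and mitosis, 43 were above all wild type libraries in Vav-Cre 1 and below all of them in Vav-Cre 2, and 57 were higher in Vav-Cre 1. For comparison, 12.1% of all tested genes were on opposite sides of wild type in either order. Mki67, a nuclear protein of cycling cells, was at 599, 576 and 646 CPM in wild type, 962 in Vav-Cre 1 and 465 in Vav-Cre 2, and Top2a, the topoisomerase of dividing cells, at 674, 592 and 602, then 861 and 421. The mitotic cyclin gene Ccnb1 was at 97.4, 101 and 107 CPM, then 112 and 51.0. A mean over the group is therefore the mean of a higher and a lower library: edgeR called 0 of the 58, 1 had an unadjusted p below 0.05 and DESeq2 called 0. Genes of G1/S and DNA replication split likewise, with medians of 0.134 and -0.472 and with 23 of 51 on opposite sides of wild type. Mcm5, a subunit of the replicative helicase, was at 458, 458 and 420 CPM in wild type, 443 in Vav-Cre 1 and 272 in Vav-Cre 2. The summed level of the G2/M list was 6872 to 7034 CPM in wild type, 8675 in Vav-Cre 1 and 4650 in Vav-Cre 2.

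Immediate early genes, which are switched on within minutes of stimulation or handling, split the opposite way. Of 28 tested members 27 were higher in Vav-Cre 2 than in Vav-Cre 1, and the medians were 0.356 and -0.432. Fos was at 184, 187 and 193 CPM in wild type, 63.0 in Vav-Cre 1 and 212 in Vav-Cre 2. Egr1 was at 52.2, 77.8 and 86.7, then 45.5 and 89.5. Of the 28, 4 (14.3%) were below all wild type libraries in both Vav-Cre libraries, where 17.1% of all tested genes were. Klf4 and Fosb were among these 4, though each was higher in Vav-Cre 2 than in Vav-Cre 1. Klf4, a factor tied to stem cell rest, was at 14.0, 13.1 and 11.1 CPM against 1.75 and 5.14 (-1.88 ± 0.45, adjusted p = 0.101). Fosb was at 26.8 to 40.7 CPM against 3.71 and 16.7. The list had 0 calls with edgeR, 3 members at an unadjusted p below 0.05 and 2 DESeq2 calls. MHC class I and II genes had medians of -0.144 and 0.497 in Vav-Cre 1 and 2, with 0 of 22 called by edgeR, 4 at an unadjusted p below 0.05 and 1 called by DESeq2.

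**Figure D4:**
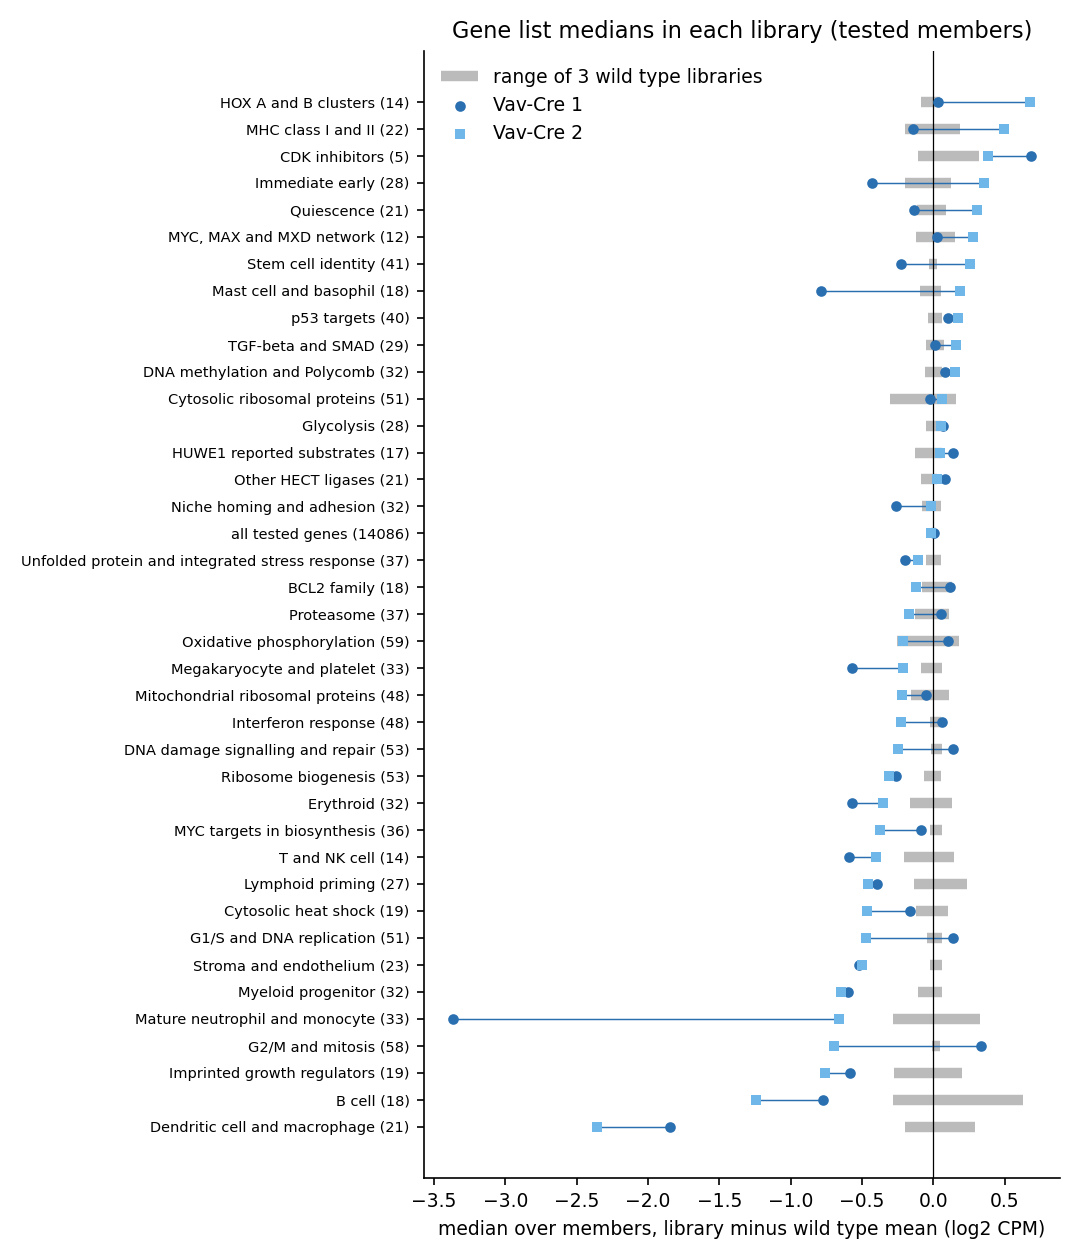
Median over the tested members of each of the 38 gene lists, and over all tested genes, as log2 CPM minus the wild type mean on the horizontal axis. The grey bar spans the 3 wild type libraries, the dark circle is Vav-Cre 1 and the light square Vav-Cre 2, and the number of genes stands behind each name. Ribosome biogenesis, erythroid, myeloid progenitor, macrophage and lymphoid lists, among others, lie below wild type in both libraries. The cell cycle, immediate early and stem cell lists lie on opposite sides.

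The medians of the erythroid, macrophage, myeloid and platelet lists were lower in both Vav-Cre libraries than in each wild type library. So were those of the lymphoid priming, B cell, T and NK cell and stromal lists. In a sorted bulk population fewer cells of a type and less RNA per cell cannot be told apart. Erythroid genes had 2 of 32 tested members called, Rhd among them and both lower, and 16 (50%) below all wild type libraries in both Vav-Cre libraries, against 17.1% of all tested genes, with a fitted median of -0.481 (-0.573 in Vav-Cre 1 and -0.356 in Vav-Cre 2). The blood group gene Ermap was at 16.6, 27.8 and 24.4 CPM in wild type, without a read in Vav-Cre 1 and at 2.23 in Vav-Cre 2 (-4.33 ± 0.90, adjusted p = 0.0676). Car1, a red cell carbonic anhydrase, was at 57.2, 122 and 129 CPM, then 1.58 and 26.2 (-2.88 ± 0.86, adjusted p = 0.184). By library totals Alas2, the heme synthesis enzyme of red cells, was at 6.02, 5.44 and 5.36 CPM against 4.36 and 6.50 (adjusted p = 0.99), so its groups overlapped. Epor, the erythropoietin receptor, was at 12.8, 13.3 and 17.1 CPM by library totals against 10.2 and 12.3 (adjusted p = 0.705), slightly below wild type in both libraries. Hba-a1 and Hbb-b1 had no count in any library. The summed level of the list's 36 genes was 6413 to 7345 CPM in wild type and 7384 and 5818 in Vav-Cre libraries. Vav-Cre 1 was thus just above and Vav-Cre 2 below every wild type library in this sum.

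Macrophage and dendritic cell genes had the lowest median after fitting of all 38 lists, -2.18 over 21 tested members (-1.85 in Vav-Cre 1 and -2.36 in Vav-Cre 2), with 14 (66.7%) below all wild type libraries in both, against 17.1% of all tested genes. The iron exporter gene Slc40a1 passed, at 42.0, 59.1 and 45.2 CPM against 9.74 and 3.69 (-2.86 ± 0.45, adjusted p = 0.0339), and passed in 4 of the 8 fits without a library (highest adjusted p 0.146). Spic, the factor that directs iron-recycling macrophages, was at 12.5, 15.3 and 14.6 CPM against 4.27 and 2.14 (-2.14 ± 0.42, adjusted p = 0.0556), and the complement gene C1qb at 3.20, 12.7 and 6.78 against 1.33 and 0.558 (-3.00 ± 0.72, adjusted p = 0.101). The macrophage markers Cd5l and Emr1 (F4/80) were at 2.48 to 6.63 and 0.924 to 5.19 CPM in wild type, and at most 0.385 and 0.527 in Vav-Cre libraries. Not all members fell: 4 of the 21 had a positive fitted change. The macrophage marker Cd163 was 1 of these 4, at 13.1 to 21.9 CPM against 22.8 and 18.4 (0.25 ± 0.29, adjusted p = 0.779). The median of the list was also low in Mx1-Cre libraries 1, 2 and 3, at -0.903, -0.946 and -0.470. The summed level of the 26 genes was 268 to 328 CPM in wild type, 157 in Vav-Cre 1 and 191 in Vav-Cre 2. How far this moved the called gene was not tested.

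Mpo, the peroxidase of primary granules, was at 367, 318 and 215 CPM in wild type and at 67.9 and 72.0 in Vav-Cre libraries (-2.10 ± 0.29, adjusted p = 0.0244). It was the 1 of 32 myeloid progenitor genes to pass and passed in 6 of the 8 fits without a library (highest adjusted p 0.101). Of the 32, 16 (50%) were below all wild type libraries in both Vav-Cre libraries, against 17.1% of all tested genes. Their summed level did not follow: it was 2457 to 2702 CPM in wild type, 2024 in Vav-Cre 1 and 2776, above all wild type libraries, in Vav-Cre 2. Elane, the neutrophil elastase gene, was at 148, 119 and 87.4 CPM, then 13.5 and 40.3 (-2.14 ± 0.67, adjusted p = 0.198), while Plac8 lay above wild type at 104 and 295 against 66.9 to 77.0 CPM (1.45 ± 0.34, adjusted p = 0.0961). Among 33 genes of mature neutrophils and monocytes Fpr1 alone passed. The median of that list was -3.37 in Vav-Cre 1 and -0.665 in Vav-Cre 2. Granule genes showed the gap: Ngp was at 162, 274 and 592 CPM in wild type, 2.66 in Vav-Cre 1 and 128 in Vav-Cre 2, and Ltf at 42.9, 51.2 and 164, then 0.210 and 29.6. Already among wild type libraries these genes varied 3-fold or more.

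Platelet lineage genes had 3 calls among 33 tested members, all lower. F2rl2, a thrombin receptor subunit, was at 51.1, 43.3 and 40.3 CPM against 17.4 and 16.8 (-1.39 ± 0.18, adjusted p = 0.0154). Thbs1, the adhesive glycoprotein thrombospondin-1, was at 13.0, 6.76 and 11.4 CPM against 2.42 and 2.36 (-2.12 ± 0.37, adjusted p = 0.0376), and Serpine2 is the third. The summed level of the 36 listed genes was 5410 to 5923 CPM in wild type, 3429 in Vav-Cre 1 and 4843 in Vav-Cre 2. Thbs1 passed in 2 of the 8 fits without a library (highest adjusted p 0.154). Gata1, the master factor of red cells and platelets, was at 98.5, 109 and 123 CPM against 56.8 and 58.2 (-0.94 ± 0.18, adjusted p = 0.0556), and Pf4, a platelet chemokine, at 241, 395 and 269 against 86.6 and 108 (-1.63 ± 0.40, adjusted p = 0.105). In the other direction Gata2, its partner at the stem cell stage, was at 317 to 405 CPM against 458 and 710 (0.67 ± 0.23, adjusted p = 0.234). Selp, which encodes P-selectin, was at 6.53 to 33.4 CPM in wild type, 16.2 in Vav-Cre 1 and 264 in Vav-Cre 2.

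Lymphoid genes had no call. Of the 27 lymphoid priming genes tested edgeR called 0, 5 had an unadjusted p below 0.05 and DESeq2 called 1. Satb1, a chromatin organiser of early lymphoid cells, was at 10.7, 14.3 and 18.0 CPM against 4.27 and 5.08 (-1.62 ± 0.37, adjusted p = 0.0914), Flt3, a receptor of lymphoid-primed progenitors, at 97.5, 79.2 and 80.0 against 65.1 and 115 (adjusted p = 0.964), and Notch1 at 61.5 to 71.7 against 51.1 and 45.2 (adjusted p = 0.254). In the B cell list (18 tested) 4 members had an unadjusted p below 0.05, and in the T and NK cell list (14 tested) 3 did. DESeq2 called 0 and 2 of them, edgeR 0 of both. The lymphoid priming medians were -0.398 in Vav-Cre 1 and -0.458 in Vav-Cre 2 (wild type -0.137 to 0.237). For the B cell list they were -0.777 and -1.242 (wild type -0.281 to 0.629). Those of the T and NK cell list were -0.592 and -0.403 (wild type -0.205 to 0.142). Stromal and endothelial genes had 1 of 23 called, Timp3, which passed in 2 of the 8 fits without a library (highest adjusted p 0.148), and the proteoglycan gene Bgn was at 65.2 to 73.7 CPM against 38.6 and 24.3 (-1.17 ± 0.22, adjusted p = 0.0516).

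In 8 lists of metabolism, protein turnover, repair and signalling the fitted medians were near that of all genes. Oxidative phosphorylation (59 tested, median -0.043), the proteasome (37, -0.059), mitochondrial ribosomal proteins (48, -0.135), glycolysis (28, 0.034), DNA damage signalling and repair (53, -0.054), interferon response (48, -0.047), the BCL2 family (18, 0.015) and other HECT ligases (21, 0.081) held 0 genes called by edgeR. At an unadjusted p below 0.05 they held 1, 1, 4, 5, 4, 4, 1 and 1 genes, and DESeq2 called 0, 0, 0, 2, 1, 1, 0 and 0. A median near 0 can join opposite values of the libraries: Vav-Cre 1 and 2 were at 0.136 and -0.248 for DNA damage signalling and repair (wild type -0.016 to 0.057), at 0.060 and -0.224 for interferon response (wild type -0.023 to 0.052), at 0.101 and -0.211 for oxidative phosphorylation (wild type -0.258 to 0.177) and at 0.054 and -0.173 for the proteasome (wild type -0.130 to 0.110). Imprinted growth regulators (19 tested, median -0.673) also had no call by edgeR, but 8 members had an unadjusted p below 0.05, all lower (7.64% of all tested genes were), and DESeq2 called 3. Ndn, the imprinted growth suppressor necdin, was at 21.6, 27.9 and 31.5 CPM against 12.2 and 8.49 (-1.39 ± 0.30, adjusted p = 0.0731). The 21 quiescence genes had 8 at an unadjusted p below 0.05, 3 called by DESeq2 and 0 by edgeR.

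Single genes showed how far the Vav-Cre libraries can part, with 1 library on each side and hence no test. Beside Fcer1a and the neutrophil genes, Plscr2, a phospholipid scramblase gene, had 26 reads in Vav-Cre 1 (95% exact Poisson interval 17.0 to 38.1) and 2335 in Vav-Cre 2 (2241 to 2432), against 133 to 495 in wild type. The class II gene H2-Eb1 had 23 and 1470 reads, and Ccl9, a chemokine gene, was at 8.27 and 99.5 CPM against 3.39 to 5.61 in wild type. In the other direction Psma8, a testis proteasome subunit, had 443 reads in Vav-Cre 1 (402.7 to 486.2) and 10 in Vav-Cre 2 (4.80 to 18.4), where wild type had 1068 to 1574. Kpna2, a nuclear import receptor, had 904 and 82 reads against 782 to 866. Intervals cover counting error only.

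The contrast of Vav-Cre with Mx1-Cre libraries tested where the constitutive and the induced deletion differ, since the wild type libraries cancel. Here 24 of 14086 genes (0.17%) passed, 16 higher (0.114%) and 8 lower (0.0568%) in Vav-Cre libraries, and without single libraries the number ran from 3 (without wild type 3) to 412 (without Vav-Cre 1). Kcnj5, Add2 and Slc38a5, close to silent in Vav-Cre libraries, stood at 2.94 to 3.87, 5.39 to 7.87 and 7.80 to 11.4 CPM in the 3 Mx1-Cre libraries, and the differences were -5.35 ± 0.61, -5.83 ± 0.57 and -5.11 ± 0.50 (adjusted p = 0.0183, 0.00726 and 0.00726). Atp1b2 was at 18.8 to 28.4 CPM in Mx1-Cre libraries (-3.82 ± 0.47, adjusted p = 0.0183). These 4 genes were thus lower in Vav-Cre than in Mx1-Cre libraries by the test of the difference itself. The collagen gene Col5a1, also among the 5 largest differences in this direction, was at 0.210 and 0.434 CPM in Vav-Cre and at 3.77 to 7.70 CPM in Mx1-Cre libraries (-4.08, adjusted p = 0.0346).

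**Figure D5:**
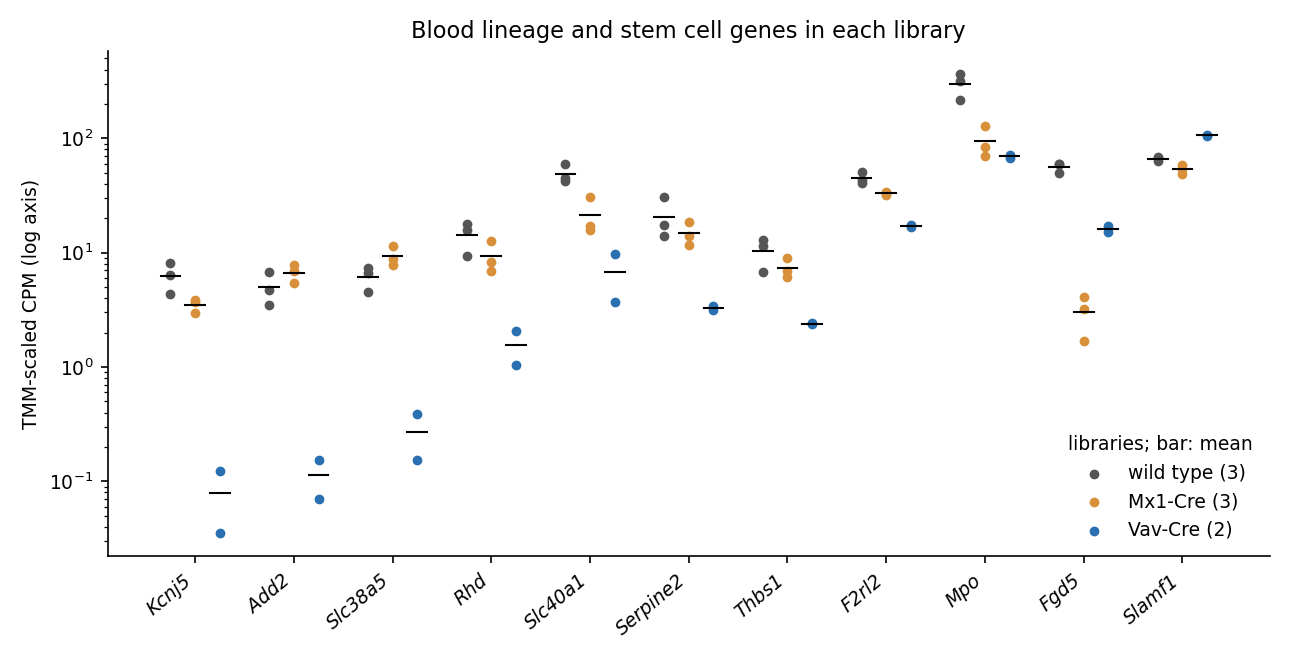
TMM-scaled CPM on a log axis for 11 genes of the blood lineages and of stem cells in all 8 libraries, with the mean of each group as a bar. Vav-Cre libraries (blue) are far below the other groups for Kcnj5, Add2, Slc38a5 and Rhd, lie between wild type and Mx1-Cre for Fgd5, and are above both for Slamf1.

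Fgd5 went the opposite way in this contrast. It was at 17.2 and 15.2 CPM in Vav-Cre libraries and lower, at 3.24, 4.06 and 1.70 CPM, in Mx1-Cre libraries (2.43 ± 0.30, adjusted p = 0.0183). This call, like every other call of a higher level in this contrast, was lost when only the 5 Vav-Cre and Mx1-Cre libraries were fitted. That fit called 0 genes higher and 3 lower. Slamf1 was at 105 and 108 against 49.0 to 58.1 CPM (0.99, adjusted p = 0.0346). Entpd1, the surface nucleotidase CD39, was at 15.5 and 20.1 CPM in Vav-Cre libraries, close to the 19.6 to 26.2 CPM of wild type, and at 2.27 to 5.03 in Mx1-Cre libraries (2.23, adjusted p = 0.0346). Gda, a guanine deaminase, was at 32.3 and 78.6 against 13.3 to 15.2 CPM (1.93, adjusted p = 0.0440), and the uncharacterised 2810468N07Rik at 2.14 and 5.76 against 0.494 to 0.603 CPM (2.85, adjusted p = 0.0346). Serpinf1 and Rec8 were higher than in Mx1-Cre libraries too, at 13.3 and 23.4 against 4.28 to 6.73 CPM (1.79 ± 0.29, adjusted p = 0.0459) and at 51.0 and 74.4 against 16.3 to 20.6 CPM (1.81 ± 0.23, adjusted p = 0.0214), as was 2010015L04Rik at 10.6 and 21.9 against 0.865 to 2.07 CPM (3.41 ± 0.50, adjusted p = 0.0346). Several of the largest changes against wild type did not differ past the threshold in this contrast. Synpo2 was at 20.7 to 32.7 CPM in Mx1-Cre libraries (difference 0.51 ± 0.23, adjusted p = 0.378), Zmat3 at 36.1 to 53 (0.11 ± 0.28, adjusted p = 0.915), Cpt1c at 21.4 to 28.6 (0.12 ± 0.24, adjusted p = 0.887) and Mpo at 70.2 to 128 (-0.43 ± 0.27, adjusted p = 0.547). A p above the threshold does not show that these levels are equal.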

How the data were processed

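Read counts per gene symbol were deposited by the authors for 8 libraries as raw counts, 23358 genes in all. The mm9 build and the tools HTSeq, TopHat, edgeR and SAMtools are named, per the submitters' processing notes, with no version. Neither the annotation used for counting nor its strand setting is given in the sources used here. Libraries were made with an ultra-low-input amplification kit that does not mark strand, per the labels' protocols. A second deposited table holds CPM. It equals count divided by library total for the 12457 genes with at least 1 CPM in at least 3 libraries (largest relative difference 5.07e-15). No sample column was left out (0 not used).

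The 14086 genes past edgeR's filterByExpr (count minimum 10, total 15) were tested with edgeR 4.0.16 (R 4.3.3) by the quasi-likelihood test with TMM scaling, in 1 model over all 8 libraries. Replicate numbers were not a term in it. P-values were adjusted over all tested genes by Benjamini-Hochberg, with a threshold of 0.05. Changes are log2 fold changes ± SE derived from the test statistic, and log2 CPM uses a prior count of 2. CPM values in the text are scaled by TMM library sizes, except the summed levels of lists and the values of Alas2 and Epor. Those are relative to library totals. The test was checked on simulated data.

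Members and lists were chosen with earlier results of these data known. Named are Huwe1, the 15 largest called changes per direction (groups not overlapping, 4 or more counts per group, mean log2 CPM of 1 or more), up to 6 called or else 3 members per list, a fixed set of stem cell and lineage genes, the 5 largest per direction against Mx1-Cre, and 12 per direction between the Vav-Cre libraries. Genes with few reads are covered where the text needs them, and other genes were singled out after their values were seen. Values of some genes that the rule covers are not reported here. Of the 72 called genes 70 were found in the annotation by symbol, 17 share exon bases with another gene and 15 of these with one on the opposite strand, so their reads cannot be told apart by strand.

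Alternatives were DESeq2 1.42.0, limma 3.58.1 (voom with quality weights, and limma-trend on log2 of deposited CPM plus 1), 3 other scalings, 2 other filters, the 5 compared libraries alone, a replicate block, other thresholds and each library left out. Promoter windows are from RefSeq, build GRCm38.p6, matched by symbol, and no coordinates of the mm9 files were used.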

Additional observations from a re-analysis of the deposited data

Results flagged for a closer look

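The effect of Vav-Cre deletion differed from that of Mx1-Cre deletion in the same edgeR model for 14 named genes. The contrast of both effects equals Vav-Cre minus Mx1-Cre, since the wild type libraries are shared and cancel. Effects were lower with Vav-Cre for 5 of them: Add2 (-5.83), the potassium channel gene Kcnj5 (-5.35), the amino acid transporter gene Slc38a5 (-5.11), the collagen gene Col5a1 (-4.08) and Atp1b2 (-3.82), all as log2 differences. Both Vav-Cre libraries were below all 3 Mx1-Cre libraries in each. Of the 14 named genes, 3 kept their call when only the 5 Vav-Cre and Mx1-Cre libraries were fitted, and 5 with limma-voom. The fit of those 5 libraries called 0 genes higher and 3 lower.

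Effects were higher with Vav-Cre for Slamf1 (0.987), Serpinf1 (1.79), Rec8 (1.81), Gda (1.93), Entpd1 (2.23), Fgd5 (2.43), 2810468N07Rik (2.85) and 2010015L04Rik (3.41). Fgd5 and Slamf1 are both used to mark stem cells. Fgd5 fell against wild type in the Vav-Cre libraries and was lower still in the Mx1-Cre ones. Meiob had a fitted difference of 10.6, which is no bound, because it had no read in any Mx1-Cre library. Set against a floor of 3 counts over that group, its mean of 6.26 CPM in Vav-Cre libraries was at least 184-fold higher.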

How the results depend on the processing

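With 2 Vav-Cre libraries the number of called genes depended strongly on the tool and on single libraries. Against wild type (72 genes) it was 586 with DESeq2, 146 with limma-trend, 174 with no filter, 111 with the 5 compared libraries alone and 236 at an adjusted p below 0.1. It was 69 with limma-voom, where 40 rose and 29 fell, and ranged from 5 to 196 with a library left out, the highest without Vav-Cre 1 (103 higher, 93 lower). Against Mx1-Cre (24 genes) the number was 470 with DESeq2, 10 with limma-voom, 81 with no filter, 3 with the 5 compared libraries and 76 at 0.1, and ranged from 3 to 412. Genes outside the wild type range numbered 4615 with TMM (2201 higher, 2414 lower) and 4615 with library totals (1946 higher, 2669 lower). Between groups, deviations of same-numbered libraries correlated at -0.071 to 0.129 and those of differently numbered ones at -0.177 to 0.163. These values cannot decide whether the numbers pair libraries, because the 2 Vav-Cre libraries deviate from their mean as mirror images. With a replicate block 20 genes were called against wild type and 9 against Mx1-Cre. Of 47 named genes called against wild type, each kept its direction in every fit run; 47 kept the call with DESeq2, 33 with limma-voom, 16 with the block and 43 with the 5 libraries. The cause of these shifts was not tested.

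Named genes that were not called against wild type changed direction as follows (log2). With limma-voom: Cd48 -0.00853, H2-Eb1 -1.28, Myc 0.0044, Top2a -0.0171. With limma-trend: Cd48 -0.0137, H2-Eb1 -1.17, Top2a -0.0678. With library totals: Cd48 -0.0153. With the replicate block: Egr1 0.0593, Flt3 -0.209, H2-Eb1 -0.142, Top2a -0.0645, Utp18 0.021. With a library left out the ranges were Alas2 -0.321 to 0.214, Ccnb1 -0.999 to 0.137, Cd48 -0.0175 to 0.0489, Egr1 -0.666 to 0.31, Flt3 -0.393 to 0.423, Fos -1.58 to 0.169, Gda -0.0337 to 1.25, Gzmb -3.13 to 9.61, H2-Eb1 -4.72 to 1.09, Kpna2 -3.37 to 0.265, Ly6a -0.712 to 0.798, Max -0.0674 to 0.38, Mcl1 -0.0299 to 0.363, Mecom -0.0314 to 0.225, Mki67 -0.386 to 0.664, Myc -0.223 to 0.0983, Plscr2 -3.18 to 3.12, Selp -0.0561 to 4.03, Top2a -0.566 to 0.469, Utp18 -0.435 to 0.164. Against Mx1-Cre, where neither was called, Cpt1c was at -0.0273 with the block and Zmat3 at -0.0429 with limma-voom and -0.414 to 0.491 with a library left out.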

Other observations

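A few genes had very different counts in libraries of the same group, and for H2-Q2, Msh5 and AI506816 the pattern did not follow the groups. H2-Q2, a class I MHC gene, had 451, 4 and 356 reads in wild type 1 to 3, 613, 10 and 561 in Mx1-Cre 1 to 3 and 338 and 7 in Vav-Cre 1 and 2. Msh5, a meiotic mismatch repair gene, had 2663 and 233 reads in the Vav-Cre libraries, 2223, 235 and 2723 in those of the wild type and 3235, 174 and 2268 in those with Mx1-Cre, so both genes were low in the library numbered 2 of each group. AI506816 had 40, 37 and 22 reads in wild type 3, Mx1-Cre 1 and Vav-Cre 2 and more than 1000 in the other 5 libraries. The olfactory receptor gene Olfr632 had 34, 20 and 43 reads in wild type 1 to 3 and 0 in the 3 Mx1-Cre libraries. It had 0 in Vav-Cre 1 and 401 in Vav-Cre 2. These genes were singled out after their values were seen.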
